A study of Homo sapiens with 8 samples.

Results

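The 10 genes described here are 8 dual-specificity phosphatase genes that act on MAP kinases (DUSP1, DUSP4, DUSP5, DUSP6, DUSP7, DUSP8, DUSP10 and DUSP14) and 2 Sprouty genes (SPRY2 and SPRY4). They were taken by symbol from a list that was chosen with earlier results of these data known. Each symbol matched 1 of the 61806 genes in the deposited count table. Messenger RNA was sequenced from N/TERT-1 cells, a telomerase-immortalized line of human epidermal keratinocytes with WT genotype, after ethanol, the solvent control, or O/A, the combination of the ATP synthase inhibitor oligomycin and the complex III inhibitor antimycin A. The study treated the cells for 4 hours, and where it states doses for O/A, in its imaging experiments, oligomycin was at 10 µM and antimycin A at 4 µM. Each condition had 4 libraries from independent experiments, with 17210404 to 20999927 counts per library after ethanol and 17689760 to 19263046 after O/A. Both conditions shared the keratinocyte serum-free medium with recombinant epidermal growth factor and bovine pituitary extract, so ligand for the EGF receptor was in the medium of the ethanol control too. All libraries came from 1 line, so the spread between them is that between experiments and not between donors.

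MAP kinases (ERK, JNK and p38) are switched on by phosphorylation of a threonine and a tyrosine in their activation loop, and MAP kinase phosphatases switch them off by removing both phosphates. Many of these phosphatase genes are themselves transcribed in response to MAP kinase activity or stress, which makes them feedback regulators as well as transcriptional readouts of the pathway. Sprouty proteins act further upstream, between growth factor receptors and the Ras to ERK cascade, and ERK signalling also induces several of them. In keratinocytes the EGF receptor and ERK drive proliferation and migration, whereas p38 and JNK respond to stress.

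After O/A, 6 of the 10 genes were upregulated (DUSP1, SPRY4, DUSP6, DUSP5, SPRY2 and DUSP14), 2 were downregulated (DUSP4 and DUSP7) and 2 were not called (DUSP8 and DUSP10). A gene was called when the adjusted p of edgeR's quasi-likelihood test was at most 0.05 and log2(FC), the log2 of O/A over ethanol, was beyond 0.25 in either direction. Of the 14893 genes with enough counts to test, 15.8% were upregulated and 18.9% downregulated by the same rule. All 10 genes passed the count filter. The median log2(FC) of the 10 was 0.42, beside -0.0004 over all tested genes. Levels below are CPM (read counts scaled to library size with TMM factors) for comparing libraries, and FPKM, which also divides by gene length, for comparing genes. Because the RNA came from whole cultures, fewer cells expressing a gene and less of its RNA per cell cannot be told apart.

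**Figure D1:**
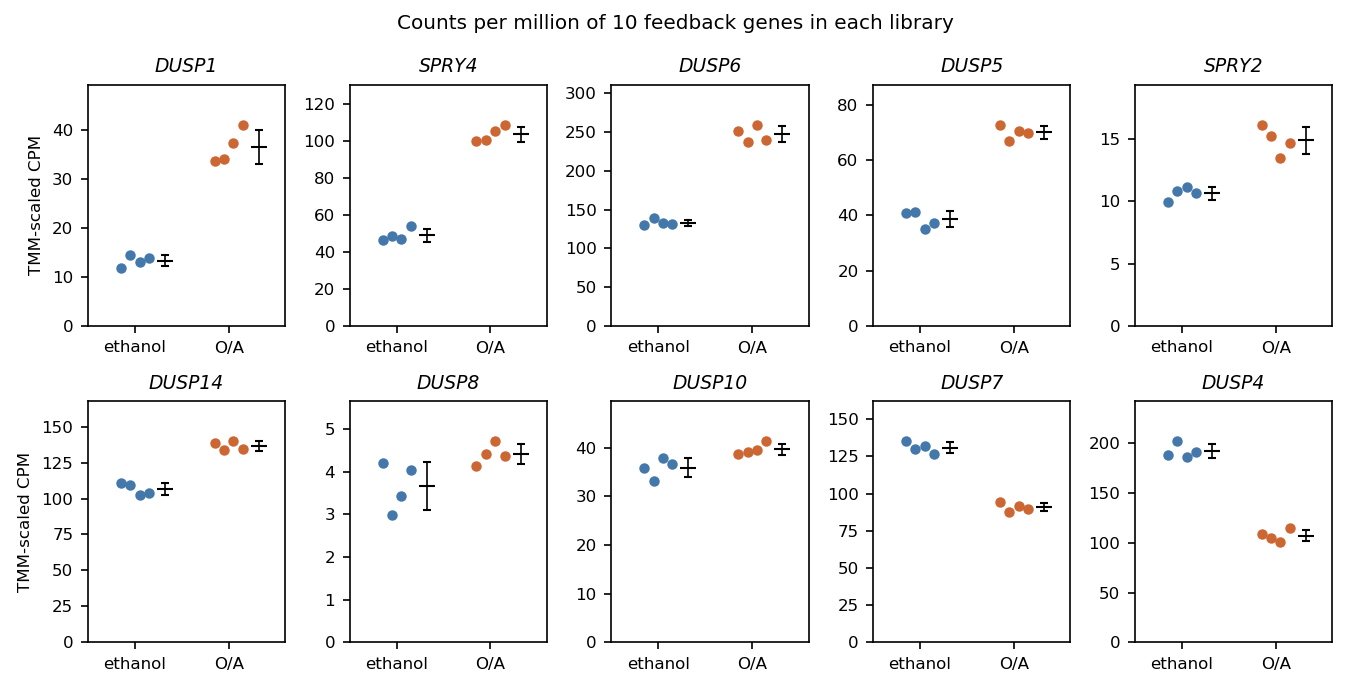
TMM-scaled CPM (linear axes from 0) of each of the 10 genes in the 4 ethanol and 4 O/A libraries, 1 panel per gene, where points are libraries and horizontal marks with bars are the mean and SD. For 7 genes all O/A points sit above all ethanol points, for DUSP4 and DUSP7 they sit below, and for DUSP8 the points overlap.

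Of the nuclear phosphatases, which are typically low in resting cells and induced by growth factors or stress, DUSP1 and DUSP5 rose and DUSP4 fell. DUSP1 (ENSG00000120129, chr5:172768096-172771195, minus strand, GRCh38), also called MKP-1, dephosphorylates p38 and JNK as well as ERK. Its CPM was 11.9, 14.6, 13.04 and 13.8 in ethanol replicates 1 to 4 and 33.6, 34.1, 37.4 and 41.1 in O/A replicates 1 to 4. The groups did not overlap, and the lowest O/A library stood 2.30-fold above the highest ethanol library, the widest such gap among the 10 genes. DUSP1 increased 2.74-fold (95% interval 2.49 to 3.01, log2(FC) 1.45, SE 0.068, edgeR adjusted p = 2.11e-22). Its log2(FC) was larger in size than that of 98.1% of tested genes.

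DUSP5 (ENSG00000138166, chr10:110497907-110511533, plus strand) encodes an ERK-specific nuclear phosphatase that also holds ERK in the nucleus. Its CPM was 40.7, 41.2, 35.1 and 37.1 after ethanol and 72.7, 66.8, 70.6 and 69.7 after O/A. The O/A libraries lay within a narrow band above all the ethanol libraries, with a 1.62-fold gap between the nearest libraries. DUSP5 increased 1.82-fold (95% interval 1.70 to 1.93, log2(FC) 0.86, SE 0.046, edgeR adjusted p = 4.33e-22). The divergent transcript DUSP5-DT, which does not overlap DUSP5, held 7.12% as many counts (54 to 91 per library).

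DUSP4 (ENSG00000120875, chr8:29333064-29350684, minus strand), also called MKP-2, is the close relative of DUSP1 that acts on ERK and JNK in the nucleus. In contrast to DUSP1 and DUSP5 its CPM was higher after ethanol, at 187.7, 201.7, 186.4 and 191.1, than after O/A, at 108.3, 104.9, 100.8 and 114.8. Every O/A library was below every ethanol library, with a 1.62-fold gap. DUSP4 was 1.79-fold lower after O/A (log2(FC) -0.84, SE 0.034, 95% interval -0.91 to -0.77, edgeR adjusted p = 5.94e-25). In FPKM it was the highest of the nuclear phosphatases after ethanol (26.7 ± 0.963, SD, n = 4, against 15.4 ± 1.12 for DUSP5 and 6.72 ± 0.582 for DUSP1). After O/A it was the lowest (14.5 ± 0.801, against 27.1 ± 0.914 for DUSP5 and 17.8 ± 1.67 for DUSP1). Within single libraries the ratio of DUSP1 to DUSP4 FPKM lay at 0.229 to 0.261 after ethanol and 1.12 to 1.34 after O/A, and that of DUSP5 to DUSP4 was 0.541 to 0.623 and 1.74 to 2.01. DUSP4 was thus the highest of the nuclear phosphatases in each ethanol library and the lowest in each O/A library.

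The cytoplasmic ERK-selective phosphatases DUSP6 and DUSP7 also moved in opposite directions. DUSP6 (ENSG00000139318, chr12:89347235-89352501, minus strand), or MKP-3, is a common readout of ERK activity. Its CPM was 130.0, 138.7, 132.7 and 131.4 after ethanol and 251.8, 237.4, 259.4 and 239.6 after O/A. The nearest libraries of the 2 conditions were 1.71-fold apart. DUSP6 increased 1.86-fold (95% interval 1.78 to 1.94, log2(FC) 0.89, SE 0.031, edgeR adjusted p = 2.96e-30), the smallest adjusted p of the 10 genes. An antisense gene that overlaps it, ENSG00000274021, held 0.434% as many counts (12 to 18 per library). Whether the counting used strand is not given in the sources used here, so how reads in overlaps of antisense pairs were treated is not known.

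DUSP7 (ENSG00000164086, chr3:52048919-52056571, minus strand) shares the substrate preference of DUSP6. Its CPM was 135.2, 129.7, 131.8 and 126.5 after ethanol and 94.5, 87.7, 91.4 and 89.8 after O/A. The groups were separated by a 1.34-fold gap. DUSP7 was 1.44-fold lower after O/A (log2(FC) -0.53, SE 0.033, 95% interval -0.59 to -0.46, edgeR adjusted p = 2.40e-19). The ratio of DUSP6 to DUSP7 FPKM ranged from 1.41 to 1.57 after ethanol and from 3.92 to 4.17 after O/A. The corresponding ratio of DUSP6 to DUSP4 went from 1.30 to 1.34 up to 3.93 to 4.85.

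The phosphatases that prefer JNK and p38, DUSP8 and DUSP10, were not called: DUSP10 passed only the threshold on the adjusted p and DUSP8 only that on log2(FC). DUSP10 (ENSG00000143507, chr1:221701424-221742089, minus strand), or MKP-5, had 35.8, 33.1, 37.8 and 36.7 CPM after ethanol and 38.7, 39.1, 39.5 and 41.3 after O/A. The O/A libraries were all higher in CPM, by a gap of 1.02-fold, whereas in FPKM the ranges overlapped. Its log2(FC) was 0.14 (SE 0.049, 95% interval 0.045 to 0.24, edgeR adjusted p = 0.0115), below the threshold on log2(FC). That adjusted p depended on scaling, unit and 1 library: it was 0.0902 with library totals alone, 0.0750 and 0.0763 with limma on log2(FPKM + 0.1) and log2(FPKM + 1), and 0.0752 without ethanol replicate 2. DUSP8 (ENSG00000184545, chr11:1554051-1572271, minus strand) was the lowest of the 10 genes, with 4.2, 3.0, 3.4 and 4.0 CPM after ethanol and 4.1, 4.4, 4.7 and 4.4 after O/A (53 to 89 counts per library). Its groups overlapped, and the estimate (log2(FC) 0.26, SE 0.14, edgeR adjusted p = 0.1003) had a 95% interval of -0.011 to 0.54. That interval held both no change and rises of up to 1.45-fold. The pseudogene DUSP8P5 held 14.3% and the overlapping antisense gene KRTAP5-AS1 7.05% as many counts as DUSP8, which adds uncertainty to so low a level.

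DUSP14 (ENSG00000276023, chr17:37489891-37513501, plus strand), or MKP-6, is an atypical phosphatase that lacks the amino-terminal kinase-binding domain of the others. Its CPM was 110.5, 109.1, 102.2 and 104.2 after ethanol and 138.8, 133.5, 139.8 and 134.1 after O/A. The libraries were tightly grouped within each condition and separated by a 1.21-fold gap. DUSP14 increased 1.28-fold (95% interval 1.23 to 1.34, log2(FC) 0.36, SE 0.032, edgeR adjusted p = 8.80e-14). It was the most abundant of the 10 transcripts after ethanol (44.3 ± 1.51 FPKM) and the second after O/A (55.0 ± 1.22 FPKM), where DUSP6 led with 62.9 ± 2.54 FPKM.

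Both Sprouty genes in the list rose. SPRY4 (ENSG00000187678, chr5:142310427-142326455, minus strand), an inhibitor of Ras to ERK signalling downstream of growth factor receptors, had 46.5, 48.5, 46.9 and 53.7 CPM after ethanol and 99.7, 100.7, 105.1 and 108.7 after O/A. The gap between the groups was 1.86-fold, second only to that of DUSP1 among the 10 genes. SPRY4 increased 2.11-fold (95% interval 1.99 to 2.24, log2(FC) 1.08, SE 0.041, edgeR adjusted p = 7.68e-27). SPRY4-AS1, which overlaps it on the other strand, held 1.48% as many counts. SPRY2 (ENSG00000136158, chr13:80335976-80341126, minus strand), which acts at the same step, had 9.97, 10.8, 11.2 and 10.7 CPM after ethanol and 16.2, 15.2, 13.5 and 14.7 after O/A. The groups did not overlap, and SPRY2 increased 1.40-fold (95% interval 1.25 to 1.56, log2(FC) 0.48, SE 0.080, edgeR adjusted p = 9.61e-07). The 95% intervals of the log2(FC) of SPRY4 and SPRY2 did not overlap. The ratio of SPRY4 to SPRY2 FPKM was 2.06 to 2.47 after ethanol and 3.03 to 3.82 after O/A.

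Taking the 10 genes by log2(FC), the order was DUSP1, SPRY4, DUSP6, DUSP5, SPRY2, DUSP14, DUSP8, DUSP10, DUSP7 and DUSP4. Neighbours in this order had overlapping 95% intervals from SPRY2 through DUSP10 and between DUSP6 and DUSP5, and the other neighbours did not. In 7 of the 10 genes every O/A library was above every ethanol library in CPM, as in 22.8% of all tested genes, and in 2 of the 10 every O/A library was below, as in 24.8%. For each of these 9 genes, a two-sided exact permutation test on CPM gave p = 0.0286, the smallest value that 4 libraries against 4 allow, and for DUSP8 it gave 0.0571.

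**Figure D2:**
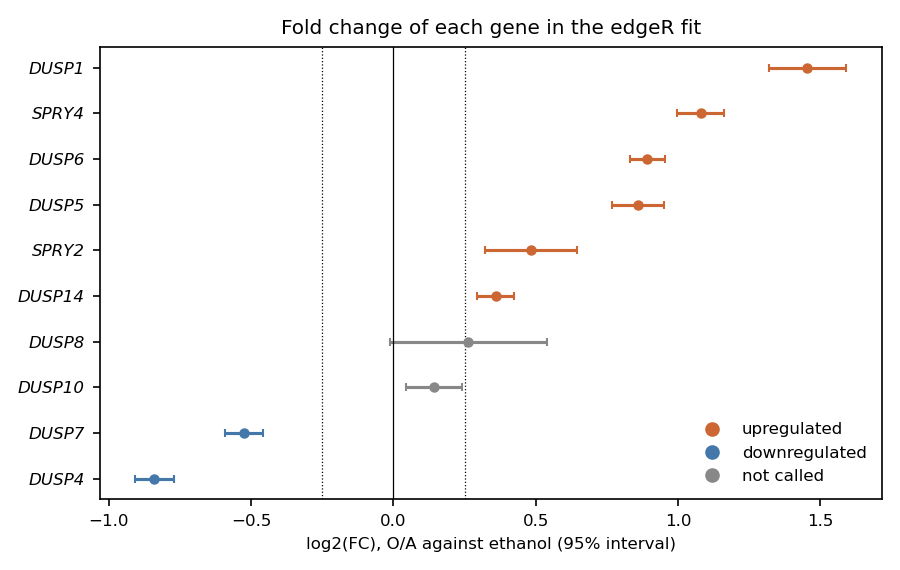
log2(FC), O/A over ethanol, of each of the 10 genes from edgeR (points) with 95% intervals (bars), ordered by value, with the thresholds of 0.25 in either direction as dotted lines and upregulated, downregulated and uncalled genes in orange, blue and grey. DUSP1 at 1.45 is farthest to the right and DUSP4 at -0.84 farthest to the left, and the interval of DUSP8 crosses 0.

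On the FPKM scale, the summed level of the 8 phosphatases was 165 ± 3.23 (SD, n = 4) after ethanol and 208 ± 4.53 after O/A, with ranges of 162.71 to 169.55 and 201.35 to 211.71. Its 2 decreasing members, DUSP4 and DUSP7, offset part of the rise of the others. The sum of the cytoplasmic pair DUSP6 and DUSP7 went from 58.4 ± 1.10 to 78.7 ± 2.88, and that of the nuclear DUSP1, DUSP4 and DUSP5 from 48.9 ± 2.17 to 59.4 ± 2.31. The ranges of these sums did not overlap between conditions. By contrast, the summed FPKM of DUSP8 and DUSP10 was 12.51 to 14.35 after ethanol and 14.26 to 15.21 after O/A, and these ranges overlapped. The summed FPKM of SPRY2 and SPRY4 went from 10.9 ± 0.563 to 20.1 ± 0.452.

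The composition of the phosphatase transcripts also differed. DUSP6 made up 21.2% ± 0.477 (SD, n = 4) of the summed phosphatase FPKM after ethanol and 30.3% ± 0.781 after O/A. The share of DUSP4 went from 16.2% ± 0.380 to 6.98% ± 0.423, and that of DUSP7 from 14.2% ± 0.443 to 7.58% ± 0.157. The share of DUSP1 went from 4.06% ± 0.330 to 8.59% ± 0.767. DUSP14, although upregulated, held 26.8% ± 0.577 and 26.5% ± 0.389, because the sum rose by a similar factor. Shares add up to a fixed total, so they are not independent of one another.

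**Figure D3:**
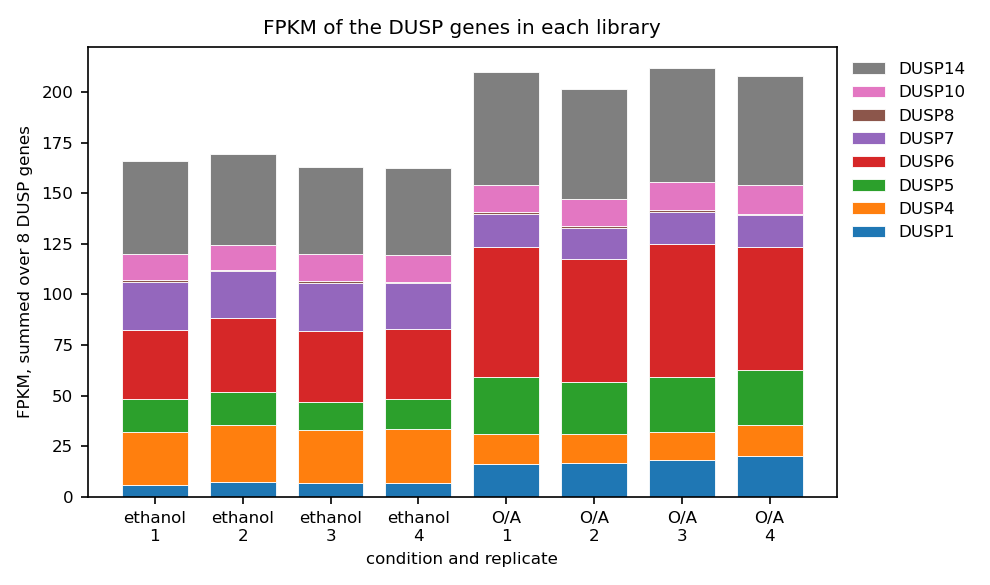
Stacked bars from 0 of the FPKM of the 8 phosphatase genes in each of the 4 ethanol and 4 O/A libraries, 1 bar per library. The bars reach 162.71 to 169.55 after ethanol and 201.35 to 211.71 after O/A, with a wider band for DUSP6 and narrower bands for DUSP4 and DUSP7 after O/A.

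Ranked by FPKM, the ethanol order was DUSP14, DUSP6, DUSP4, DUSP7, DUSP5, DUSP10, SPRY4, DUSP1, SPRY2 and DUSP8, and only SPRY4 (7.57 ± 0.509) and DUSP1 (6.72 ± 0.582) had ranges that overlapped as neighbours. The O/A order was DUSP6, DUSP14, DUSP5, DUSP1, DUSP7, SPRY4, DUSP4, DUSP10, SPRY2 and DUSP8. There DUSP7 (15.75 ± 0.476), SPRY4 (15.5 ± 0.597), DUSP4 (14.5 ± 0.801) each overlapped with the next in line, which for DUSP4 was DUSP10 (13.8 ± 0.396). SPRY2 (3.36 ± 0.172 after ethanol, 4.56 ± 0.345 after O/A) and DUSP8 (0.75 ± 0.116 and 0.873 ± 0.0457) were the lowest of the 10 genes in both conditions.

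Proximal promoters were compared because these genes moved in both directions. RefSeq (GRCh38.p14) windows of 250 bases before to 50 after the start site were found for 8 of the 10 genes, in 11 windows, and not for DUSP4 and DUSP5. The upstream 250 bases are shown for the most induced phosphatase, DUSP1 (chr5:172771196-172771445, minus strand), for DUSP8 (chr11:1572272-1572521, minus strand), which shares its full cAMP response element, and for the cytoplasmic pair that moved in opposite directions, DUSP6 (chr12:89352502-89352751, minus strand) and DUSP7 (chr3:52056572-52056821, minus strand). Sequences run 5′ to 3′ along the gene's strand, and capitals mark the letters of the cAMP response element TGACGTCA, its shorter core TGACG and the TATA box TATAAA, on either strand.
DUSP1: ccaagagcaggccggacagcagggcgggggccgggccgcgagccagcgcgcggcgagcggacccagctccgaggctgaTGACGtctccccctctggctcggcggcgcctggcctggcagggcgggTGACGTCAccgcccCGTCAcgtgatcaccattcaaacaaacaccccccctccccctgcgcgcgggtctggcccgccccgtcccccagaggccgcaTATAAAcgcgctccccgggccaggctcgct
DUSP8: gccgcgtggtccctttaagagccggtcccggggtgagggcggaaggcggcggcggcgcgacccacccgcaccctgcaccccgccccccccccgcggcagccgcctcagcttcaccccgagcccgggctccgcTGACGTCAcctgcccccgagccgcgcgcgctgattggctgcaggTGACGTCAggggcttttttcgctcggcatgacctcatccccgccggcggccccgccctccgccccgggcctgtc
DUSP6: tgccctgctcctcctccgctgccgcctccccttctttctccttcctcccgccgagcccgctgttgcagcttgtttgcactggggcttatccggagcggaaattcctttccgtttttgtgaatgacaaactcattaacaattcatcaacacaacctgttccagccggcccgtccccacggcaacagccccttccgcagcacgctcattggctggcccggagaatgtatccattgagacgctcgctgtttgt
DUSP7: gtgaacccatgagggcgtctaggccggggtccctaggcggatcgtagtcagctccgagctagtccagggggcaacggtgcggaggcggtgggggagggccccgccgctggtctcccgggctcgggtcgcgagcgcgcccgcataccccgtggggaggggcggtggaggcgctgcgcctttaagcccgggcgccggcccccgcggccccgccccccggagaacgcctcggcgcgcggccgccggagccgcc

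The full element TGACGTCA, to which CREB and ATF factors bind, began at position -125 from the start site in DUSP1 and at -118 and -74 in DUSP8. It was in 2 of the 11 windows, which belong to 2 of the 8 genes, and in 1.85% of all 35116 RefSeq windows. The shorter core TGACG, which the full element contains, was in 5 of the 11 windows and in 24.6% of all windows. The 5 windows belong to DUSP1, DUSP8, DUSP10, SPRY2 and SPRY4. For DUSP10 and SPRY4 the start site of the matching window lay 5189 and 2208 bases from the Ensembl start of the gene. The DUSP10 window at the Ensembl start held no match. TATAAA was at -30 in DUSP1 and in no other of the 8 genes, so in 1 of the 11 windows, beside 11.5% of all windows. The AP-1 site TGANTCA (7.71% of all windows), the ETS site CCGGAAGT (4.14%), the composite element TGATGNAA (3.62%) and the CArG box (1.29%) were in none of the 11 windows, which says only that these letters were absent from them. Of the genes with the full element, DUSP1 was upregulated and DUSP8 was not called. DUSP6 and DUSP7 held none of these motifs, and their upstream bases were 57.2% and 78.4% G or C, beside a median of 58% over all windows. The upregulated DUSP1 (74.4%) and DUSP14 (82.8%) were above that median, as DUSP7 was. A link of this share to direction was not tested.

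Only a few related phosphatases outside the 10 genes were called. Of the other 4 genes listed here with the typical MAP kinase phosphatases, DUSP2 had at most 1 count in a library and was not tested. DUSP16 reached a log2(FC) of 0.26 (edgeR adjusted p = 3.70e-06), and DUSP9 (-0.34, adjusted p = 0.140) and STYXL1 (-0.05) were not called. The call of DUSP16, a JNK and p38 phosphatase, lay at the threshold of 0.25 and was lost under 6 of 16 alternatives, including the fits without ethanol replicate 2 (log2(FC) 0.24), ethanol replicate 3 (0.249) and O/A replicate 1 (0.23). Of 13 other dual-specificity phosphatases, 9 were tested, and DUSP22 (log2(FC) 0.39) and DUSP12 (0.31) rose whereas DUSP19 (-1.19, 12 to 55 counts per library) fell. Of the tested genes in these lists, 33.3% and 22.2% were upregulated and 0% and 11.1% downregulated. Over all tested genes the shares were 15.8% and 18.9%, and the lists are too small to tell from these. The medians of these lists were -0.05 and -0.06, close to that of all tested genes.

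Among the relatives of SPRY2 and SPRY4, SPRY1 moved the other way. SPRY1, which like them restrains Ras to ERK signalling, had 57, 74, 72 and 81 counts after ethanol and 9, 11, 10 and 23 after O/A. Its libraries did not overlap, and it was 5.11-fold lower after O/A (log2(FC) -2.35, SE 0.22, edgeR adjusted p = 4.67e-13). The ratio of SPRY4 to SPRY1 FPKM ranged from 6.89 to 9.18 after ethanol and from 49.3 to 121 after O/A. SPRED2, a Spred inhibitor of the same pathway, rose (log2(FC) 0.36), and SPRY3 (0.40, adjusted p = 0.107), SPRED1 (-0.04) and SPRED3 (0.10) were not called.

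The other brakes on receptor, Ras and ERK signalling were upregulated in 5 (35.7%) and downregulated in 2 (14.3%) of 14 genes. Over all tested genes these shares were 15.8% and 18.9%. The median log2(FC) of the brakes was 0.06. The largest rise was that of ERRFI1 (MIG6), an inhibitor that binds the EGF receptor, from 45.9 ± 1.29 to 155 ± 7.88 FPKM (log2(FC) 1.81, edgeR adjusted p = 1.54e-35). CBL, the ubiquitin ligase that acts on activated receptors, rose by a log2(FC) of 0.55. LRIG1 (-0.84, only 17 to 39 counts per library) and SOCS5 (-0.35), which also restrain EGF receptor signalling, fell. The LRIG1 call was lost under 1 of 15 alternatives.

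Genes known as transcriptional targets of ERK were upregulated in 9 (64.3%) and downregulated in 3 (21.4%) of 14, with a median log2(FC) of 1.09. Of all tested genes, 15.8% were upregulated and 18.9% downregulated. This list, like the other related lists, was chosen with earlier results of these data known, which limits the comparison of these shares. HBEGF, an EGF receptor ligand, rose from 8.50 ± 0.675 to 119 ± 4.05 FPKM (log2(FC) 3.85, edgeR adjusted p = 3.59e-43), and the immediate early gene EGR1 rose by 1.77. CCND1, which encodes cyclin D1, fell from 80.5 ± 1.12 to 39.4 ± 0.308 FPKM (log2(FC) -0.99), and ETV1 (-0.79) fell at only 7 to 23 counts per library. The ETV1 call was lost with DESeq2 (adjusted p = 0.0655), with limma on log2(FPKM + 1) (0.0641) and with edgeR without O/A replicate 4 (0.0697). Like the 10 feedback genes, this list held members that moved in both directions.

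Transcripts of the kinase cascades themselves were examined in the same way. Of 20 receptor, Ras and ERK cascade genes, 6 (30.0%) were upregulated and 0 downregulated with edgeR and likewise with DESeq2. With edgeR, 15.8% and 18.9% of all tested genes were so called. At an unadjusted edgeR p under 0.05 and any fold change, 11 were higher and 2 lower. Both lower genes passed the threshold on the adjusted p and missed only that on log2(FC). The 2 largest rises were those of the exchange factor SOS2 (log2(FC) 0.86) and the kinase BRAF (0.49). Of 20 JNK and p38 cascade genes, 2 were upregulated, MAP3K7 (0.35) and MAPK8 (0.31), and 5 were downregulated, with the largest falls in the upstream kinases MAP3K1 (-0.65) and MAP3K5 (-0.57). The list medians were 0.08 and -0.07. Kinase phosphorylation was not measured in these libraries.

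**Figure D4:**
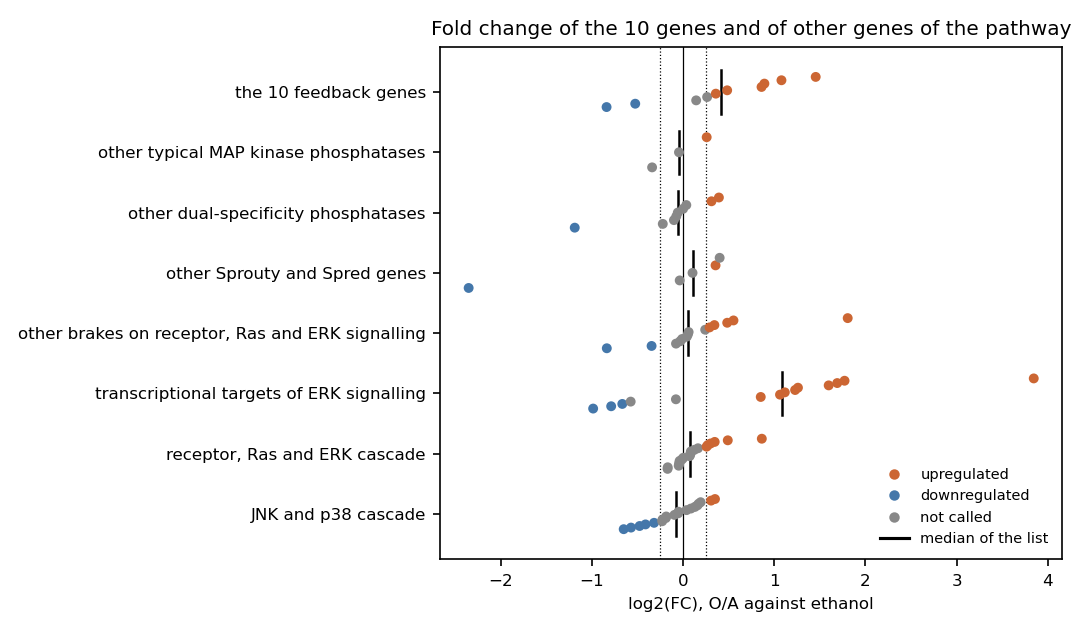
log2(FC), O/A over ethanol, of every tested gene in the 10-gene set and in the related lists, 1 row of points per list, with the list median as a vertical bar, calls in orange (up) and blue (down), and the thresholds of 0.25 as dotted lines. The medians are 0.42 for the 10 genes and 1.09 for the ERK targets, and lie between -0.07 and 0.10 for the other lists. All lists were chosen with earlier results of these data known.

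The libraries carried the transcripts of keratinocytes. The summed FPKM of 10 keratinocyte markers was 4016 to 4278 after ethanol and 3571 to 3727 after O/A, with 1 marker upregulated and 2 downregulated. Summed fibroblast markers (8 genes) were 2.42 to 2.95 and 2.46 to 2.71 FPKM, and summed melanocyte markers (7 genes, 2 of them at 0 in every library) 1.41 to 1.81 and 1.26 to 1.71. Summed immune and endothelial markers (7 genes) were 0.46 to 0.64 after ethanol and 0.67 to 0.92 after O/A, and the only tested gene was CD68 (15 to 33 counts per library, log2(FC) 0.56, edgeR adjusted p = 0.0350). Its call was lost under 7 of 15 alternatives, among them DESeq2 (adjusted p = 0.0778) and the edgeR fits without ethanol replicate 1 (adjusted p = 0.131), O/A replicate 1 (0.0960) or O/A replicate 4 (0.0742). The part of the marker differences in the results above was not tested.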

How the data were processed

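Poly(A)-selected RNA of 8 N/TERT-1 cultures was sequenced by the study. The authors aligned reads with HISAT2 2.0.1 (GRCh38.p13) and counted them per gene with HTSeq 0.6.1; the Ensembl release and strand setting are not given in the sources used here. The authors deposited raw counts and FPKM per library, and the deposited FPKM equalled the counts divided by gene length and library total within 0.005. A deposited table of the authors' own DESeq2 comparison (mean count, fold change, log2 fold change, standard error, Wald statistic, p and adjusted p) was not used.

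Tests covered genes that reached 10 counts in 4 or more libraries, with edgeR 4.0.16 (R 4.3.3; TMM, glmQLFit, glmQLFTest, Benjamini-Hochberg adjustment over all tested genes), O/A against ethanol, with calls at an adjusted p of at most 0.05 and a log2(FC) beyond 0.25. SE and 95% intervals of log2(FC) come from the quasi-likelihood F. Fits were also run on simulated data, with an outcome that is not reported here and that no result above rests on. Alternatives were DESeq2 1.42.0, limma 3.58.1 on log2(FPKM + 0.1) and log2(FPKM + 1), other scalings, filters and fold thresholds, the replicate block and each library left out. No 2 libraries agreed within sampling noise (chi-square per degree of freedom at least 1.78 over 11168 genes). The 10 genes and all lists were chosen with earlier results of these data known. Every one of the 10 is named; of each related list, the 2 largest rises and falls among called genes, or the whole list where it has at most 5 genes; and neighbouring transcripts at 10 counts or 1% of a gene's counts. CD68 was named after its values were seen. DUSP13 stands for DUSP13A and DUSP13B, as in the files.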

Additional observations from a re-analysis of the deposited data

Results flagged for a closer look

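Among 70 groups of 4 libraries checked for a library far from the other 3, 3 were marked, and chance marks about 1 in 20 such groups. None belonged to the 10 genes. O/A replicate 4 stood at 1.32 CPM for SPRY1, above the 0.518 to 0.593 of the remaining O/A replicates, and leaving it out gave a log2(FC) of -2.77. LRIG1 had 2.10 CPM in ethanol replicate 1, against 1.74 to 1.77 in the others, and 1.19 CPM in O/A replicate 2, against 0.953 to 0.978.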

How the results depend on the processing

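All 159 recomputed values of the 10 genes kept their direction and call under the alternatives run at the fold threshold of 0.25. In some of these the adjusted p of DUSP10 passed above 0.05 (up to 0.0902) and the log2(FC) of DUSP8 below 0.25 (down to 0.0997), both uncalled. With no fold threshold, DUSP10 was also upregulated, so that 7 of the 10 rose and 2 fell. DUSP8 was not tested with at least 100 counts in 4 libraries. Leaving out each library gave log2(FC) ranges of 1.39 to 1.498 for DUSP1, 1.05 to 1.13 for SPRY4, 0.87 to 0.92 for DUSP6, 0.82 to 0.89 for DUSP5, -0.87 to -0.81 for DUSP4 and -0.54 to -0.50 for DUSP7. Replicate numbers did not pair the libraries (correlations of deviations 0.0389, -0.00212, -0.0226 and 0.0675 for numbers 1 to 4, and not every library correlated best with its own number), and the replicate block gave 2354 upregulated and 2806 downregulated genes, and 6 and 2 of the 10. Some counts moved by construction of the threshold. With |log2(FC)| above 1, 2 of the 10 rose (DUSP1 and SPRY4) and 0 fell, 382 genes rose and 415 fell in all, 1 of the other brakes rose and 0 fell, 0 ERK targets fell, and 0 other typical phosphatases, other dual-specificity phosphatases, other Sprouty and Spred genes, receptor, Ras and ERK cascade genes or JNK and p38 cascade genes rose, with 0 of the last falling. With no fold threshold, 3868 genes rose in all, 10 cascade genes of the ERK list rose and 2 fell, 5 of the JNK and p38 list rose and 8 fell, and 2 other dual-specificity phosphatases fell. With log2(FPKM + 1), 1514 genes rose in all, 1 other dual-specificity phosphatase rose and 2 fell, 3 brakes rose and 1 fell, 1 JNK and p38 gene rose, and 0 other typical phosphatases rose. Library totals alone and log2(FPKM + 0.1) also gave 0 rises of typical phosphatases and 2 falls of other dual-specificity phosphatases, and leaving out single libraries gave 0 to 1 rises of typical phosphatases. With at least 100 counts in 4 libraries, low genes were not tested, so 0 other dual-specificity phosphatases, 0 Sprouty and Spred genes and 1 brake fell. The cause of the moves under FPKM and library totals was not tested. A change of DUSP8 is limited by its 53 to 89 counts per library.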
